A study of Mus musculus with 6 samples.

Results

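The genes described here are those of DNA replication licensing and of the replication fork, a set of 53 genes picked by symbol from the 18057 genes of the deposited table, and all 53 were found. They encode the proteins that mark origins, load and start the helicase, copy both strands, join the lagging strand and place histones behind the fork. RNA was sequenced in 6 libraries of 4T1, a line of mouse breast cancer cells. The control group had DMSO, a solvent (3 libraries), and the other group had BRQ (3 libraries), and a DHODH inhibitor is named in the series title. DHODH makes orotate, from which pyrimidine nucleotides are built, in mitochondria. The labels used here give no dose, duration, clone or culture for any library, no change of genotype, and the same cell line for both groups. The letters DHO in the titles of both groups are left unexplained. Nothing in the labels says that the 3 libraries of a group came from separate cultures, so the p-values measure the spread between these libraries, which may be technical. Each level is in FPKM, the fragments of a gene per kilobase of its model scaled to library depth, a unit per length that lets levels of different genes be set side by side.

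Replication is prepared before it starts. The origin recognition complex (Orc1 to Orc6) sits on origins and, with Cdc6 and Cdt1, loads the MCM2-7 helicase in an inactive form in G1, which is called licensing, while geminin blocks Cdt1 later in the cycle. In S phase the kinase made of Cdc7 and Dbf4, together with cyclin-dependent kinases, brings Cdc45 and the GINS complex to MCM2-7, and the resulting helicase opens the DNA. Polymerase alpha-primase lays primers, replication factor C loads the sliding clamp PCNA at them, polymerase epsilon copies the leading strand and polymerase delta the lagging strand. Many of these genes are known targets of E2F transcription factors, which raise them as cells pass from G1 to S. Forks consume deoxynucleotides, some of which are made from the pyrimidines that DHODH helps to supply.

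Dhodh itself measured 10.97 ± 0.473 FPKM under DMSO and 24.1 ± 1.55 under BRQ (n = 3, SD; log2 fold change 1.07 with an SE of 0.0542, adjusted p = 4.31e-08 by limma), which does not check the labels, since an inhibitor acts on the enzyme. Recovered depths were 30942871 to 34053453 reads per library, and the replication genes held 222 to 16734 reads each in a library. Epithelial markers fixed for 4T1 were present, with 12 of 13 above 1 FPKM and Cldn7 at no more than 0.667 FPKM. Transcripts of other cell types set BRQ replicates 2 and 3 apart. A list of 14 hepatocyte genes, 6 of them below 1 FPKM in every library, summed to 20.8 to 24.0 FPKM under DMSO, 22.0 in BRQ replicate 1, and 1.11 and 0.94 in BRQ replicates 2 and 3. A list of 15 macrophage genes had 9 below 1 FPKM in every library and none at 0 in all. It summed to 48.5 to 52.9 FPKM under DMSO, 106 in BRQ replicate 1, and 159 and 155 in BRQ replicates 2 and 3. Cd68, Cd74 and Cd14 were higher in all 3 BRQ libraries than under DMSO. Lyz2 measured 4.44 to 5.38 FPKM under DMSO, 3.56 in BRQ replicate 1, and 35.4 and 36.35 in BRQ replicates 2 and 3. Tyrobp measured at most 0.725 FPKM under DMSO, 0.66 in BRQ replicate 1, and 6.06 and 6.54 in BRQ replicates 2 and 3. The other fixed lists, for fibroblasts (7 genes), endothelium (5) and lymphocytes (7), summed to at most 8.99, 0.431 and 1.76 FPKM in a library, and that of fibroblasts was mostly Pdgfra. Summed, the replication genes took 0.742% to 0.744% of the recovered reads in each of the 3 BRQ libraries, which does not speak for single genes.

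Genes of licensing and of the fork were mostly higher under BRQ, but not evenly. Of the 53 genes 42 (79.2%) rose and 6 (11.3%) fell at a limma adjusted p under 0.05, against 48.7% and 33.7% of all 10552 tested genes, of which 82.4% passed the threshold in either direction. The other 5 genes, Gmnn, Cdc7, Gins1, Pold3 and Pole, did not pass it. The 48 genes that passed make up 90.6% of the 53. In these same 48, and in no other of the 53, the 3 BRQ values lay wholly above or wholly below the 3 DMSO values. Among all tested genes, called or not, this held for 83.7% (49.0% above and 34.8% below). The median log2 fold change was 0.53 over the replication genes and 0.12 over all tested genes, a difference of 0.41. By role, medians near that of all genes were found for licensing factors (0.12), the origin recognition complex (0.16) and polymerases delta and epsilon (0.089). In the other roles the median lay between 0.42 (polymerase alpha-primase) and 1.16 (clamp and clamp loader). A rise that passed the limma threshold and was at least 2-fold in mean FPKM was found for 15 of the 53 genes (28.3%), against 10.1% of tested genes. A fall that passed it and was at least 2-fold was found for 4.87% of tested genes, and the largest fall among the 53 was 1.57-fold (Dbf4). Together the 53 genes held 0.494% ± 0.0018 of the recovered reads in the DMSO libraries and 0.743% ± 0.0013 in the BRQ libraries (SD, n = 3). In a bulk sample, more cells with a transcript and more of the transcript per cell cannot be told apart. FPKM and shares of reads are set against the total of each library, so they give no amount of RNA per cell.

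The fold changes carry the general shift of these libraries, which moves the genes nearest to no change. Under 3 scalings that take this shift off (median-ratio, TMM, quantile), 35 of the 53 genes rose in each case, and 8, 8 and 10 fell, while all genes split into 4386 higher and 4348 lower, 4370 and 4373, and 4250 and 4432, against 5143 and 3555 without scaling. Mcm6, Orc1, Orc5, Cdt1, Ticrr, Rfc1 and Chaf1a were the genes whose rise was lost under each of the 3 scalings. The 6 falls were called under each of them. With BRQ replicates 2 and 3 left out, 40 genes rose and 6 fell, and 45 of the 48 calls were made again, all but those of Orc1, Ticrr and Chaf1a, while Gmnn was called higher. In that fit 4562 of 10505 tested genes rose and 3163 fell. Its BRQ group is 1 library, which is assumed to vary as the DMSO libraries do, so calls kept, lost or gained there rest on the spread of the DMSO group.

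**Figure D1:**
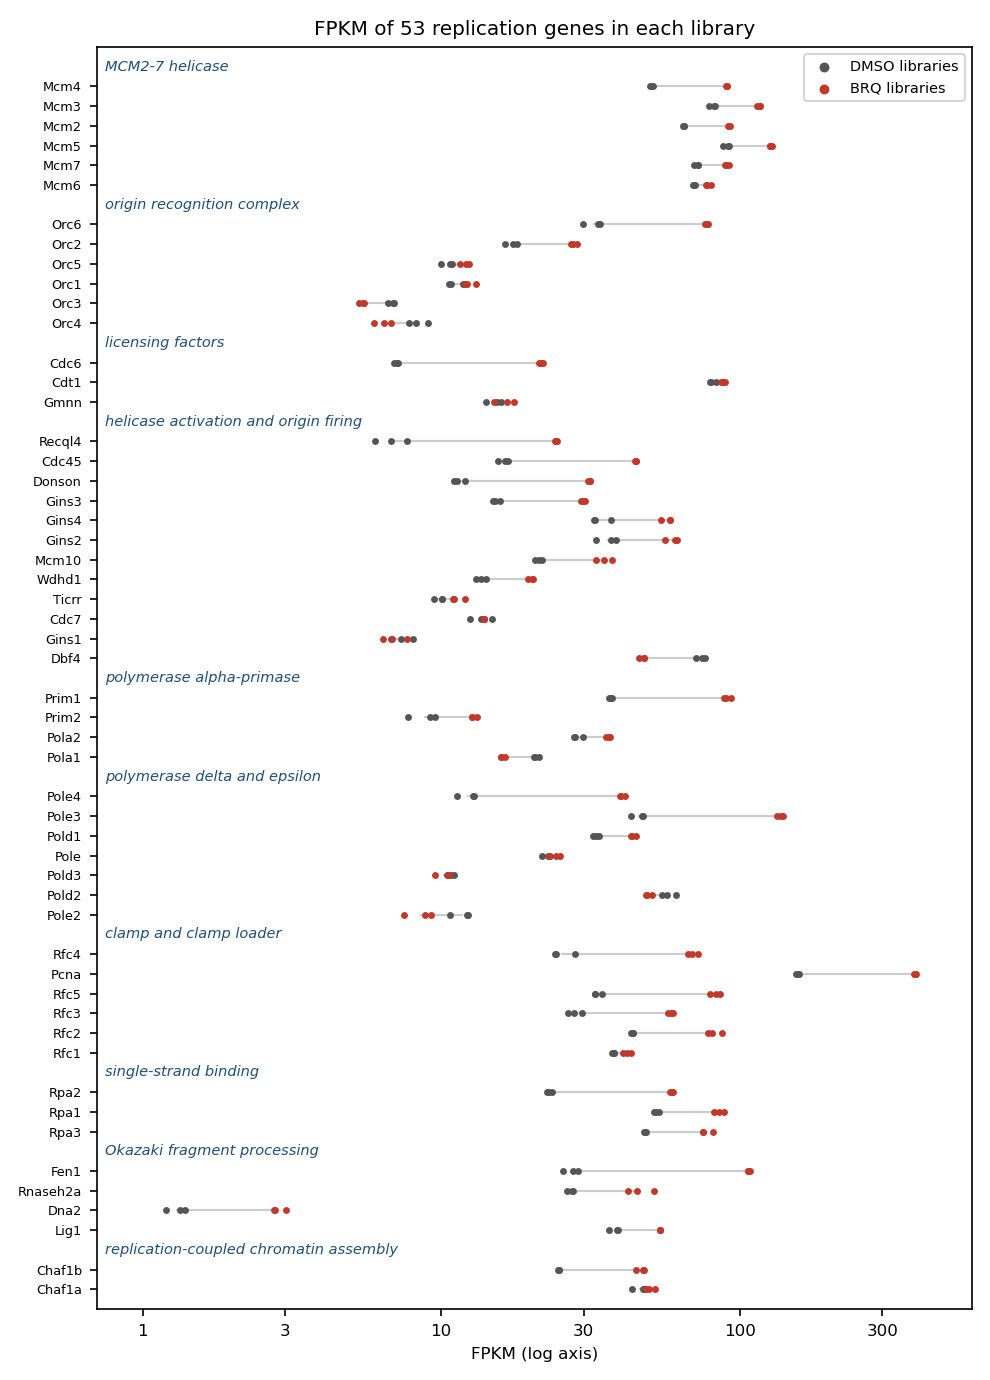
FPKM of the 53 replication genes (log axis) in each of the 3 DMSO and 3 BRQ libraries, grouped by role and ordered by fold change within a role, where a grey line joins the means of the groups. The dots of the groups are apart for 48 genes, with BRQ to the right for 42 and to the left for 6. Among all tested genes the groups are apart for 83.7%, with BRQ above for 49.0% and below for 34.8%.

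**Figure D2:**
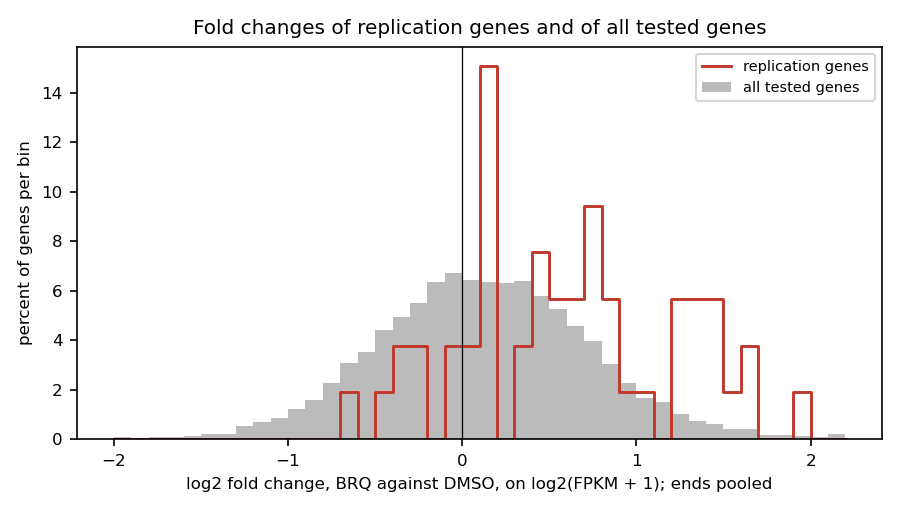
Share of genes (percent) in each bin of log2 fold change, for the 53 replication genes (red line) and all 10552 tested genes (grey bars). The replication genes have a median of 0.53 and reach from -0.64 to 1.94, while all tested genes have a median of 0.12.

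Because many genes of the set are known targets of E2F factors, the promoters of the set were read for E2F letters. RefSeq windows of build GRCm38.p6, from 250 bases before to 50 after an annotated start, were at hand for 44 of the 53 genes. Where a gene has several windows, a match in any of them was counted, and the window printed is the first with an E2F form or else the first listed. The windows were searched on both strands for 4 forms of the E2F site (TTTCCCGC, TTTCGCGC, TTTGCCGC and TTTGGCGC), for the CCAAT box (CCAAT), which NF-Y binds, and for the CHR element (TTTGAA), known from genes of mitosis. An E2F form was present in 16 of the 44 genes (36.4%), against 5.14% of 8535 tested genes and 2.6% of all 27025 genes with a window. The CCAAT box was present in 24 (54.5%, against 43.7% of tested genes) and the CHR letters in 7 (15.9%, against 13.9%). The E2F letters were in 12 of 36 genes that rose, in 3 of 6 that fell, and in 3 of the 14 with a window that rose at least 2-fold, and differences between these shares were not tested. A match is a description of the letters in this window, and no binding was measured.

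The windows of 7 genes are shown, with matches in capitals. Fen1, Pole4 and Pole3 had the largest rises in log2 fold change, on log2(FPKM + 1), among genes with a window, and Dbf4 the largest fall. In mean FPKM, Cdc6, which has a window with an E2F form and is not shown, rose more than Pole3 (3.05-fold against 2.98-fold). Mcm7, Rfc3 and Pola1 were added after the search, as genes with E2F letters that rose little (Mcm7), rose about 2-fold (Rfc3) or fell (Pola1). All start and end positions are on GRCm38.p6, and each sequence runs 5′ to 3′ on the gene's strand.
Fen1 (chr19:10204344-10204643, minus strand): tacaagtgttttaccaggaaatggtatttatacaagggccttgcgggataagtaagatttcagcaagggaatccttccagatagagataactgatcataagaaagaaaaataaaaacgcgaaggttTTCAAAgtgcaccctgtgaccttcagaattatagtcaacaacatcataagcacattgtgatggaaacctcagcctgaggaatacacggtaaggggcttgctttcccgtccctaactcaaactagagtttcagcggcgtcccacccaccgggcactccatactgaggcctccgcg
Pole4 (chr6:82652825-82653124, minus strand): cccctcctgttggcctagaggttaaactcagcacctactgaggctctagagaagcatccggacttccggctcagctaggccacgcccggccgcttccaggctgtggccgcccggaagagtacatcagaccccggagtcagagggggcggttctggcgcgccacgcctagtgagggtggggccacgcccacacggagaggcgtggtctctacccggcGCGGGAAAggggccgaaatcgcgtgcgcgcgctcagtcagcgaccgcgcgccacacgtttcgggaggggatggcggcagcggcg
Pole3 (chr4:62524965-62525264, minus strand): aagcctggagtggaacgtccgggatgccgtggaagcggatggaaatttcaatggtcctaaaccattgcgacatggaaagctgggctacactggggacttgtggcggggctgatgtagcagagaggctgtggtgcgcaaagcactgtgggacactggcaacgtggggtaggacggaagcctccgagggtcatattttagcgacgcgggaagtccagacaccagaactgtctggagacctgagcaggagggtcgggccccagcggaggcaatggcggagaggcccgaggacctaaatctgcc
Dbf4 (chr5:8422667-8422966, minus strand): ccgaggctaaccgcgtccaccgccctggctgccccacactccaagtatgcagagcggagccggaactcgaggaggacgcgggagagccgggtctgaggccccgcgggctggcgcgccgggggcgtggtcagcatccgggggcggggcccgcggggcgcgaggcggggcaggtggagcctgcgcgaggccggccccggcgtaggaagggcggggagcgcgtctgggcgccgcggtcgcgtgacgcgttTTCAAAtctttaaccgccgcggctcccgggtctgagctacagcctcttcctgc
Mcm7 (chr5:138171834-138172133, minus strand): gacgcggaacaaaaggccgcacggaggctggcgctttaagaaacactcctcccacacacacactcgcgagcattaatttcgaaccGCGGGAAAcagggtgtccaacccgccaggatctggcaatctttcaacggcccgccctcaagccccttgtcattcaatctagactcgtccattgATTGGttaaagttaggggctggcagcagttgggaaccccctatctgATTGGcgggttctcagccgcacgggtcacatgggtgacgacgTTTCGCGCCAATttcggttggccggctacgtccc
Rfc3 (chr5:151651159-151651458, minus strand): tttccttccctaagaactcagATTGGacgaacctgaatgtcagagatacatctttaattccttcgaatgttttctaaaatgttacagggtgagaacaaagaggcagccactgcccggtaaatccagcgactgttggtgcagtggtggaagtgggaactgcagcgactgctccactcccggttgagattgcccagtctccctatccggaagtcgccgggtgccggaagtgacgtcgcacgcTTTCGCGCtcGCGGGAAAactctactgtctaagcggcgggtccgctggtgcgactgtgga
Pola1 (chrX:93632106-93632405, minus strand): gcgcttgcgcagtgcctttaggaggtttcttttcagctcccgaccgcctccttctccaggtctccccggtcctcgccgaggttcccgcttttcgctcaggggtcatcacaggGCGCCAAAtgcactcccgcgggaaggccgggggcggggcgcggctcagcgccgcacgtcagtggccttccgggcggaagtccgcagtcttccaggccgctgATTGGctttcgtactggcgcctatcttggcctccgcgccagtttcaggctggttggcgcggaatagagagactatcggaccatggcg
Pole4 holds 1 E2F form on the opposite strand, starting 34 bases before the start, and Pole3, with a rise of like size, holds none of the searched letters. Fen1 and Dbf4, which moved in opposite directions, each hold the CHR letters on the opposite strand and no E2F form in the window shown. In Rfc3 both E2F forms lie at the start, from 10 bases before it and from its first base, and in Mcm7 the downstream form shares its last base with a CCAAT box. Pola1, which fell, holds an E2F form 138 bases before its start and a CCAAT box.

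The origin recognition complex divided. Of its 6 genes 4 rose (66.7%) and 2 fell (33.3%), against 48.7% and 33.7% of all tested genes. Orc6, the smallest subunit, rose the most: it measured 33.5, 34 and 29.9 FPKM under DMSO and 76.6, 77.6 and 78.4 under BRQ (log2 fold change 1.23 with an SE of 0.0459, adjusted p = 6.53e-09 by limma). Orc2, a core subunit, measured 17.3, 16.3 and 18 FPKM under DMSO and 27.7, 27.2 and 28.4 under BRQ (log2 fold change 0.66 with an SE of 0.0435). The BRQ values of both genes stood well clear of the DMSO values. Orc4 and Orc3, further core subunits, fell. Orc4 measured 8.22, 7.83 and 9.06 FPKM under DMSO and 6.45, 5.95 and 6.77 under BRQ (log2 fold change -0.34 with an SE of 0.0661, adjusted p = 0.000761 by limma). Orc3 measured 6.95, 6.65 and 6.87 FPKM under DMSO and 5.45, 5.3 and 5.53 under BRQ (log2 fold change -0.28 with an SE of 0.0509). In both genes every BRQ value lay below every DMSO value. Orc1, the subunit that carries the active ATPase, and Orc5 rose by small amounts, from 11.1 ± 0.645 to 12.4 ± 0.565 FPKM and from 10.5 ± 0.46 to 12 ± 0.449 FPKM. The groups of Orc1 came within 0.172 FPKM of each other, and its call (log2 fold change 0.15 with an SE of 0.0542, adjusted p = 0.0273 by limma) was lost without BRQ replicate 3 (adjusted p = 0.101), without DMSO replicate 1 (0.0909) and without DMSO replicate 2 (0.0791), with a range of adjusted p over all alternatives of 0.00978 to 0.657. Within the complex the FPKM of Orc6 was 4.07, 4.34 and 3.3 times that of Orc4 under DMSO and 11.9, 13 and 11.6 times under BRQ.

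Of the licensing factors, Cdc6, the ATPase that works with the origin recognition complex to load the helicase, rose 3.05-fold. Its values were 7.18, 7.1 and 6.96 FPKM under DMSO and 21.9, 21.3 and 21.5 under BRQ (log2 fold change 1.48 with an SE of 0.041, adjusted p = 1.13e-09 by limma). Cdt1, which brings MCM2-7 to the origin, measured 79.4, 83.4 and 80.3 FPKM under DMSO and 88.2, 89.5 and 86.7 under BRQ (log2 fold change 0.12 with an SE of 0.0298), and its sign turned under the scalings, to -0.0076 (median-ratio), -0.011 (TMM) and -0.10 (quantile), of which the last passed the threshold as lower (adjusted p = 0.00643 by limma, and between 0.0013 and 0.825 over all alternatives). Its inhibitor geminin, from Gmnn, measured 15.3, 14.1 and 15.9 FPKM under DMSO and 17.6, 15 and 16.6 under BRQ (log2 fold change 0.11 with an SE of 0.0623, adjusted p = 0.127 by limma), with overlapping groups. Gmnn passed as higher without BRQ replicate 2 (log2 fold change 0.17, adjusted p = 0.0278) and without BRQ replicates 2 and 3 (0.21, adjusted p = 0.0403), and its sign turned under the 3 scalings, with a range of adjusted p over all alternatives of 0.0278 to 0.867. The FPKM ratio of Cdt1 to Gmnn ranged from 5.06 to 5.9 under DMSO and from 5.01 to 5.95 under BRQ, while that of Cdc6 to Cdt1 was 0.0851 to 0.0904 and 0.238 to 0.249.

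All 6 genes of the MCM2-7 helicase, the ring that unwinds DNA, rose without scaling, with log2 fold changes from 0.15 to 0.83, though Mcm6 was called lower after quantile normalization (-0.076, adjusted p = 0.03 by limma, and between 1.08e-05 and 0.512 over all alternatives). Mcm4 rose the most, with 50.3, 49.9 and 51.3 FPKM under DMSO and 90.5, 89.7 and 90.7 under BRQ (log2 fold change 0.83 with an SE of 0.0272, adjusted p = 3.15e-09 by limma). Mcm3 measured 82, 79.1 and 82.5 FPKM under DMSO and 117, 117 and 115 under BRQ (log2 fold change 0.51 with an SE of 0.0277). Mcm2 measured 64.6, 65.1 and 65.2 FPKM under DMSO and 92.8, 91.5 and 92.4 under BRQ (log2 fold change 0.50 with an SE of 0.0258). Neither gene had overlapping groups. Mcm5 rose from 90.4 ± 2.12 to 127 ± 0.669 FPKM (n = 3, SD; log2 fold change 0.49 with an SE of 0.0271). The changes of Mcm3, Mcm2 and Mcm5 differed by less than the SE of each. Mcm7 went from 71.8 ± 1.26 to 90.4 ± 1.72 FPKM (log2 fold change 0.33 with an SE of 0.0287). Mcm6 had the smallest change, with 71.1, 69.6 and 70.5 FPKM under DMSO and 78, 80.01 and 76.9 under BRQ (log2 fold change 0.15 with an SE of 0.0283). The levels of the 6 subunits reached from 50.5 (Mcm4) to 90.4 (Mcm5) FPKM under DMSO and from 78.3 (Mcm6) to 127 (Mcm5) under BRQ, so the highest was 1.79 and 1.62 times the lowest.

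Factors that turn the loaded helicase on held both the next largest rise after Fen1 and the largest fall of the 53 genes. Recql4, a RecQ family protein that acts in origin firing, measured 6.8, 6.01 and 7.65 FPKM under DMSO and 24.1, 24.5 and 24.3 under BRQ (log2 fold change 1.70 with an SE of 0.0693, adjusted p = 1.1e-08 by limma), a 3.57-fold rise. Cdc45, a subunit of the active helicase, measured 15.5, 16.7 and 16.4 FPKM under DMSO and 44.5, 44.8 and 44.9 under BRQ (log2 fold change 1.41 with an SE of 0.038). Donson, which brings GINS to the helicase, measured 11.1, 11.3 and 12 FPKM under DMSO and 31.6, 31.6 and 31 under BRQ (log2 fold change 1.38 with an SE of 0.0409). All 3 genes left wide gaps between the groups. Mcm10, which is needed for the helicase to start, went from 21.2 ± 0.571 to 35.2 ± 2.24 FPKM, and Wdhd1, which ties polymerase alpha to the helicase, from 13.6 ± 0.528 to 19.96 ± 0.436 FPKM (SD, n = 3). Ticrr, also called treslin, which is needed to recruit Cdc45, went from 9.87 ± 0.358 to 11.3 ± 0.623 FPKM (log2 fold change 0.18 with an SE of 0.0527, adjusted p = 0.00938 by limma). This call did not hold with BRQ replicate 1 as the only BRQ library (adjusted p = 0.11), nor under the 3 scalings.

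Of the kinase that fires origins, Dbf4 passed the test and Cdc7 did not, and the difference between them was not tested. Dbf4, the regulatory subunit, fell 1.57-fold, the largest fall of the 53 genes, with 74.5, 76.4 and 71.2 FPKM under DMSO and 47.7, 47.8 and 46 under BRQ (log2 fold change -0.64 with an SE of 0.0346, adjusted p = 6.48e-08 by limma). Cdc7, the catalytic subunit, measured 13.5, 14.8 and 12.5 FPKM under DMSO and 13.9, 13.9 and 13.9 under BRQ (log2 fold change 0.03 with an SE of 0.0578, adjusted p = 0.639 by limma), with overlapping groups and a sign that turned to -0.09 (median-ratio), -0.093 (TMM) and -0.10 (quantile) under the scalings and to -0.026 without DMSO replicate 3. The FPKM of Cdc7 was 0.175 to 0.194 times that of Dbf4 under DMSO and 0.291 to 0.303 times under BRQ.

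GINS, the 4-subunit ring that joins Cdc45 and MCM2-7, rose in 3 of its subunits. Gins3 measured 15.7, 15.1 and 14.9 FPKM under DMSO and 29.3, 29.8 and 30.4 under BRQ (log2 fold change 0.92 with an SE of 0.0383), and Gins4 and Gins2 rose from 34.1 ± 2.53 to 57 ± 2.31 FPKM and from 36.2 ± 2.88 to 59.5 ± 2.78 FPKM (SD, n = 3). Gins1 did not pass the test: it measured 6.77, 8.06 and 7.33 FPKM under DMSO and 6.85, 6.39 and 7.68 under BRQ (log2 fold change -0.07 with an SE of 0.0763, adjusted p = 0.386 by limma), and it passed the threshold as lower after median-ratio (-0.19, adjusted p = 0.0443) and TMM scaling (-0.19, adjusted p = 0.0413), with a range of adjusted p over all alternatives of 0.0413 to 0.852. It also had the fewest reads of this complex, 341 to 423 per library.

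Polymerase alpha-primase, which makes the RNA-DNA primers, rose in 3 of its 4 subunits and fell in Pola1. Prim1, the catalytic primase subunit, rose 2.46-fold and measured 36.9, 36.5 and 37.4 FPKM under DMSO and 90.01, 93.8 and 88.3 under BRQ (log2 fold change 1.27 with an SE of 0.0322, adjusted p = 8.46e-10 by limma). Pola1, the catalytic polymerase subunit, fell and measured 20.5, 21.3 and 20.5 FPKM under DMSO and 15.9, 15.9 and 16.3 under BRQ (log2 fold change -0.35 with an SE of 0.0384, adjusted p = 1.15e-05 by limma). Prim2, the large primase subunit, and Pola2, the accessory polymerase subunit, rose from 8.79 ± 0.937 to 12.8 ± 0.302 FPKM and from 28.6 ± 1.06 to 36.3 ± 0.614 FPKM (n = 3, SD; log2 fold changes 0.50 and 0.33). The FPKM of Prim1 was 1.71 to 1.83 times that of Pola1 under DMSO and 5.41 to 5.9 times under BRQ.

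The replicative polymerases divided too. Of their 7 genes 3 rose (42.9%) and 2 fell (28.6%), shares near the 48.7% and 33.7% of all tested genes. In polymerase epsilon, the small histone-fold subunits Pole3 and Pole4 rose 2.98-fold and 3.28-fold. Pole3 measured 43.2, 47.4 and 47.1 FPKM under DMSO and 134, 137 and 139 under BRQ (log2 fold change 1.55 with an SE of 0.0388, adjusted p = 8.45e-10 by limma). Pole4 measured 11.2, 12.8 and 12.9 FPKM under DMSO and 41.1, 39.7 and 40.05 under BRQ (log2 fold change 1.64 with an SE of 0.0514, adjusted p = 2.41e-09 by limma). Pole2, the second subunit, fell, with 12.3, 10.7 and 12.2 FPKM under DMSO and 8.83, 7.5 and 9.24 under BRQ (log2 fold change -0.42 with an SE of 0.0783, adjusted p = 0.000602 by limma). Pole, the catalytic subunit, measured 23.2, 22.7 and 21.8 FPKM under DMSO and 24.2, 22.9 and 25.1 under BRQ (log2 fold change 0.09 with an SE of 0.044, adjusted p = 0.0837 by limma), with overlapping groups. It passed as higher without BRQ replicate 2 (log2 fold change 0.12, adjusted p = 0.0323) and on recovered reads (adjusted p = 0.0215), and its sign turned under the 3 scalings, with a range of adjusted p over all alternatives of 0.0215 to 0.481. Pole3 is also a subunit of the chromatin remodelling complex CHRAC, so its transcript does not serve the polymerase alone. Between the libraries, the FPKM of Pole3 was 1.86 to 2.17 times that of Pole under DMSO and 5.52 to 5.99 times under BRQ. In polymerase delta, the catalytic subunit Pold1 rose, with 33.7, 33 and 32.3 FPKM under DMSO and 43.3, 45 and 43.4 under BRQ (log2 fold change 0.40 with an SE of 0.0335). The accessory subunit Pold2 fell, with 56.9, 55.1 and 61.4 FPKM under DMSO and 48.9, 51 and 48.4 under BRQ (log2 fold change -0.22 with an SE of 0.0427, adjusted p = 0.000795 by limma). Pold3, which binds PCNA, measured 10.5, 11 and 10.7 FPKM under DMSO and 10.7, 10.5 and 9.56 under BRQ (log2 fold change -0.06 with an SE of 0.0524, adjusted p = 0.286 by limma), with overlapping groups, and passed as lower under the 3 scalings (-0.18, -0.18 and -0.17, adjusted p = 0.00852 to 0.0123, range over all alternatives 0.00852 to 0.895).

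The clamp and most of its loader rose together. Pcna, the clamp that holds polymerases on DNA, had the highest level of the 53 genes in each library, with 157, 155 and 158 FPKM under DMSO and 384, 389 and 387 under BRQ (log2 fold change 1.30 with an SE of 0.0222, adjusted p = 1.42e-10 by limma). Replication factor C has the large subunit Rfc1 and 4 small ones, and the small subunits rose 1.88- to 2.73-fold. Rfc4 measured 24.1, 24.2 and 28 FPKM under DMSO and 66.9, 69.2 and 72.5 under BRQ (log2 fold change 1.42 with an SE of 0.0566). Rfc5 measured 34.5, 32.8 and 32.9 FPKM under DMSO and 83.5, 85.6 and 79.6 under BRQ (log2 fold change 1.29 with an SE of 0.037). None of these groups overlapped. Rfc3 and Rfc2 went from 28 ± 1.53 to 58.7 ± 1.08 FPKM and from 43.6 ± 0.501 to 82 ± 4.55 FPKM (SD, n = 3). Rfc1 had the smallest change of the 5 subunits, with 37.9, 37.8 and 37.4 FPKM under DMSO and 41.8, 40.7 and 43.3 under BRQ (log2 fold change 0.15 with an SE of 0.0335, adjusted p = 0.00202 by limma), and its sign turned after quantile normalization (-0.049). The small subunits are also part of other clamp loaders, in which Rfc1 is replaced by another protein. The FPKM of Rfc4 was 0.636 to 0.748 times that of Rfc1 under DMSO and 1.6 to 1.7 times under BRQ.

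Replication protein A, which covers single-stranded DNA, rose in all 3 subunits. Rpa2, the middle subunit that checkpoint kinases phosphorylate, rose 2.57-fold and measured 23.5, 23 and 22.5 FPKM under DMSO and 59.3, 59.8 and 58.6 under BRQ (log2 fold change 1.33 with an SE of 0.0321, adjusted p = 6.95e-10 by limma). Rpa3, the small subunit, measured 48.6, 47.8 and 48.3 FPKM under DMSO and 75.6, 81.5 and 75.2 under BRQ (log2 fold change 0.67 with an SE of 0.0363). The BRQ values of both lay above the DMSO values. Rpa1, the large subunit that binds most of the DNA, went from 52.5 ± 0.948 to 85.3 ± 3.19 FPKM (n = 3, SD; log2 fold change 0.69 with an SE of 0.0342).

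Genes that finish Okazaki fragments, the short pieces of the lagging strand, all rose. Fen1, the flap endonuclease that removes the displaced primer, had the largest rise of the 53 genes, 3.92-fold, with 27.6, 25.6 and 28.7 FPKM under DMSO and 108, 107 and 107 under BRQ (log2 fold change 1.93 with an SE of 0.0409, adjusted p = 3.38e-10 by limma). Lig1, the ligase that seals the nicks, measured 36.5, 38.9 and 39.2 FPKM under DMSO and 54.1, 54.2 and 54 under BRQ (log2 fold change 0.49 with an SE of 0.0351). Its BRQ values lay within 0.296 FPKM of each other, above all DMSO values. Rnaseh2a, the catalytic subunit of RNase H2, which cuts RNA from DNA, measured 27.4, 26.4 and 27.7 FPKM under DMSO and 51.5, 45.2 and 42.3 under BRQ (log2 fold change 0.74 with an SE of 0.062). Dna2, a nuclease and helicase for long flaps, had the lowest level of the 53 genes and measured 1.34, 1.2 and 1.38 FPKM under DMSO and 2.78, 2.75 and 3.02 under BRQ (log2 fold change 0.74 with an SE of 0.0719, 2.18-fold in mean FPKM), where the log2(FPKM + 1) scale understates the change. Of chromatin assembly factor 1, which places new histones behind PCNA, Chaf1b rose, with 24.6, 24.9 and 24.8 FPKM under DMSO and 47.3, 47.9 and 44.9 under BRQ (log2 fold change 0.89 with an SE of 0.0356). Its largest subunit Chaf1a measured 47.3, 43.6 and 47.8 FPKM under DMSO and 48.4, 49.8 and 52 under BRQ (log2 fold change 0.11 with an SE of 0.0433, adjusted p = 0.0328 by limma), a call lost without BRQ replicate 2 (adjusted p = 0.0622), BRQ replicate 3 (0.119) or DMSO replicate 2 (0.119), and its sign turned under TMM and median-ratio scaling and after quantile normalization (-0.12, called lower at an adjusted p = 0.0214), with a range of adjusted p over all alternatives of 0.00806 to 0.79.

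Subunits of a complex moved by unequal amounts, and the ratios of FPKM given above were chosen after the values were seen. The span between the highest and the lowest log2 fold change of a role was 2.34 for helicase activation and origin firing. That role is not a single complex. For polymerases delta and epsilon together the span was 2.06, with both ends, Pole4 and Pole2, in epsilon. The delta members of the set reached from -0.22 (Pold2) to 0.40 (Pold1). The span was 1.63 for polymerase alpha-primase and 1.57 for the origin recognition complex. It was 0.68 for MCM2-7 and 0.66 for replication protein A. The SE of single genes was 0.0222 to 0.0783, so these spans exceed the error of the fits.

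**Figure D3:**
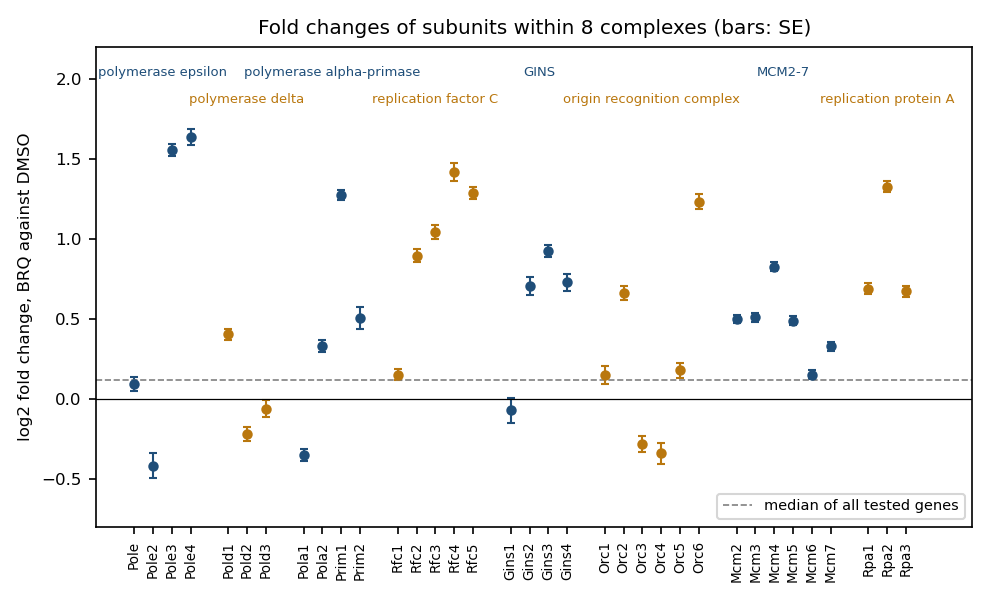
Log2 fold change of BRQ against DMSO with its SE (limma, 3 libraries per group) for the subunits of 8 complexes, with the median of all tested genes (0.12) as a dashed line. Pole3 and Pole4 sit at 1.55 and 1.64 above Pole at 0.09 and Pole2 at -0.42, and Rfc1 at 0.15 lies under the other Rfc genes.

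Longer genomic span went with a lower fold change among the replication genes as it did among all genes. Spans were taken from GENCODE M21, which is on build GRCm38 and not on the build named in the submitters' processing notes, and all 53 genes had one. Across the 53 genes the Spearman correlation of log2 fold change with span was -0.451, and across 10357 tested genes it was -0.494. With exonic length it was -0.366 and -0.412, and with mean FPKM 0.293 and 0.102, in the same order. Genes share the libraries and are not independent, so these are descriptions. Of the 27 genes up to the median span of 20.1 kb, 24 rose and 1 fell, with a median log2 fold change of 0.83, and of the 26 longer genes 18 rose and 5 fell, with a median of 0.18. Of tested genes up to that span 67.9% rose and 16.4% fell, against 88.9% and 3.7% of the replication genes, and beyond it 33% rose and 48.2% fell, against 69.2% and 19.2%. Their medians were 0.41 and -0.10, in that order. Of the 53 genes, Pola1 has the longest span (327 kb) and fell, and Pole3 the shortest (2.42 kb) and rose. Some genes do not follow the order: Prim2, at 216 kb, rose, and Pold2, at 6.11 kb, fell. The parts of genomic span and of exonic length in these changes were not tested.

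**Figure D4:**
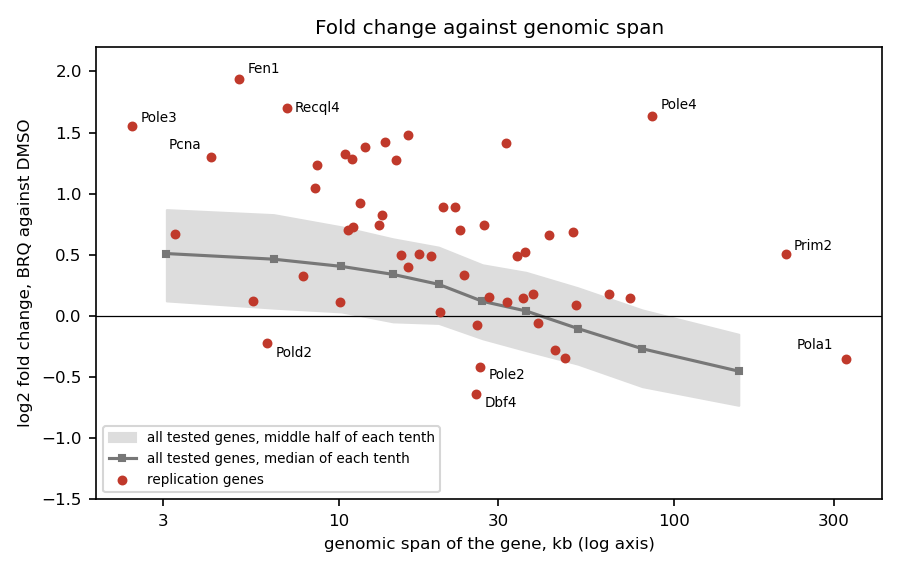
Log2 fold change of BRQ against DMSO plotted on genomic span in kb (log axis) for the 53 replication genes (red), over the median and quartiles of 10 equal bins of 10357 tested genes (grey). The grey medians go from 0.51 at 3.06 kb to -0.45 at 156 kb, and replication genes lie on both sides of them.

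Other genes of the pathway, from lists fixed beside the 53, were mixed. Of 26 fork protection factors and other partners of the replisome 24 were tested, 17 rose (70.8%) and 6 fell (25%), against 48.7% and 33.7% of tested genes, with a median log2 fold change of 0.44. Chtf18, the large subunit of an alternative clamp loader, rose from 19.3 ± 0.515 to 51.9 ± 1.54 FPKM (log2 fold change 1.38 with an SE of 0.0372, adjusted p = 1.01e-09 by limma). Lrr1, a ubiquitin ligase adaptor that helps take the helicase off DNA, rose from 4.42 ± 0.298 to 13 ± 0.405 FPKM, and Pold4, the smallest polymerase delta subunit, from 70.6 ± 0.923 to 172 ± 3.09 FPKM (SD, n = 3). Rif1, which counters the Cdc7 kinase at origins, fell from 12.5 ± 0.148 to 5.09 ± 0.201 FPKM (log2 fold change -1.15 with an SE of 0.0488, adjusted p = 1.4e-08 by limma). Rnaseh2b, a partner of Rnaseh2a, fell from 7.24 ± 0.391 to 4.07 ± 0.521 FPKM, and Topbp1, which helps form the active helicase and activates the checkpoint kinase ATR, from 62.7 ± 1.84 to 40.8 ± 1.13 FPKM (SD, n = 3). Rnaseh2c, another partner of Rnaseh2a, rose from 66.8 ± 3.37 to 140.8 ± 3.29 FPKM (SD, n = 3). Etaa1 was tested and not called, Mcm9 was below the level for testing, and Chtf8 was not matched.

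Of 14 genes of replication-coupled chromatin and topoisomerases 7 rose (50%) and 5 fell (35.7%), a share near that of all tested genes. Slbp, which binds the stem loop of replication-dependent histone transcripts, rose from 46.9 ± 3.63 to 136 ± 1.93 FPKM (log2 fold change 1.52 with an SE of 0.0487, adjusted p = 2.7e-09 by limma). The histone chaperone genes Asf1b and Nasp rose from 54.1 ± 2.77 to 129.9 ± 2.61 FPKM and from 23.4 ± 0.388 to 40.6 ± 0.791 FPKM (SD, n = 3). Top2a, which encodes the topoisomerase that untangles sister DNA and peaks in G2 and mitosis, fell from 227 ± 3.62 to 91.6 ± 2.16 FPKM (log2 fold change -1.30 with an SE of 0.0273, adjusted p = 3.38e-10 by limma). Kmt5a, a methyltransferase of histone H4 that is degraded at the fork, and Dnmt1, which copies DNA methylation, fell from 27.9 ± 1.03 to 17 ± 0.35 FPKM and from 72.1 ± 1.77 to 47.5 ± 0.36 FPKM (SD, n = 3). Under TMM, median-ratio and quantile scaling 4370, 4386 and 4250 of all 10552 tested genes rose, and 4373, 4348 and 4432 fell. Of the 14 listed genes 5, 5 and 4 rose in that order, and 7 fell in each case. The count of falls was 3 with BRQ replicates 2 and 3 left out.

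Reads of overlapping genes may have been shared or left out, and the strand setting of the counting is not given. In GENCODE M21, 17 of the 53 genes share exonic bases with another protein-coding gene. On the same strand the pairs are Rnaseh2a with Gm49661 (9.66% of its exonic bases), Donson with Atp5o (9.17%) and Pole2 with Gm49384 (8.5%). The shares over 10% of a gene's exonic bases are those of Gins2 with Gse1 (67.3%), Chaf1a with Ubxn6 (52.5%), Orc2 with Nif3l1 (29.8%), Rfc2 with Lat2 (15.1%), Rfc4 with Eif4a2 (12.7%) and Rfc5 with Wsb2 (10.7%), each on the opposite strand. Eif4a2 fell from 77.7 ± 1.36 to 14.7 ± 0.439 FPKM while Rfc4 rose, and Gse1 (4.25 ± 0.162 and 4.59 ± 0.299 FPKM) and Ubxn6 (9.15 ± 0.775 and 9.44 ± 0.0406) lay below Gins2 and Chaf1a in level. Nif3l1, Lat2 and Wsb2 rose with their partners (log2 fold changes 0.63, 1.23 and 0.40). The antisense transcript Gm10143 covers 78.8% of the exonic bases of Fen1, the gene with the largest rise, and Gm12743 covers 10.8% of those of Orc1, and no value was matched for either. These partners were looked up after the values were seen, and the part of reads on the overlaps in these values was not tested.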

How the data were processed

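RNA sequencing libraries of 4T1 cells given DMSO (3) or BRQ (3) were grouped and numbered by their labels. HTSeq, fastp and the mouse build GRCm39 are named in the submitters' processing notes. Not given in the sources used here are the aligner, annotation release, strand setting and versions. Values in FPKM, 1 column per library, were deposited by the authors for 18057 genes. A further 8 value columns matched no sample here and were not used.

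The 10552 genes whose mean FPKM reached 1 entered a two-sided limma 3.58.1 fit (under R 4.3.3, with a trended eBayes prior and no covariates) of log2(FPKM + 1). P-values were adjusted after Benjamini and Hochberg across this whole set, and the threshold was 0.05. All fold changes set BRQ against DMSO. Those in log2 are of log2(FPKM + 1), so low genes change by more than they show, and n-fold values are ratios of mean FPKM. The fit was tested on simulated data. Whole reads, within 0.02 reads, were recovered for all 10552 tested genes from the steps between FPKM values, up to a common divisor per gene. They give depth and an added test (limma-voom, 5174 genes higher and 3607 lower), and limit precision by counting error only. Within groups, chi-square per gene was 4.71 to 5.54, above counting noise, and every library was counted once.

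The members, the lists and the rule for named genes were chosen with earlier results of these data known. Any member could be named. Values in every library are given by role for the largest and smallest changes and for members that fell or were not called. From each further list 3 rises and up to 3 falls are named, and Rnaseh2c was added to go with Rnaseh2b. Alternatives were another pseudocount (0.1), no filter, a filter at 5 FPKM, 3 scalings between libraries, the replicate number as a block, a robust prior and libraries left out. Limma-voom was chosen after seeing the data.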

Additional observations from a re-analysis of the deposited data

How the results depend on the processing

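Members called higher numbered 42 and ranged from 35 to 43 over 16 alternatives. Members called lower numbered 6 in 13 of these and came to 8 under TMM and median-ratio scaling, and to 10 after quantile normalization. Of 48 called members, 41 had the same call under each of the 3 scalings and 45 to 48 in the other fits, beside 1 (Dna2) not tested at 5 FPKM. The members' median log2 fold change (0.53) was 0.40 under TMM, 0.40 under median-ratio scaling, 0.39 after quantile normalization, 0.55 with a pseudocount of 0.1 and 0.56 under limma-voom. Relative to all genes (0.41) it was 0.37 with a filter at 5 FPKM, 0.51 with none and 0.42 under limma-voom. With each library left out it ranged from 0.51 to 0.56, and relative to all genes from 0.40 to 0.44. Of the chromatin list, 4 genes rose after quantile normalization, and 3 fell with BRQ replicates 2 and 3 left out.

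Signs turned under the scalings for genes near no change. In the order TMM, median-ratio and quantile, the log2 fold change was -0.011, -0.0076 and -0.10 for Cdt1, -0.015, -0.012 and -0.029 for Gmnn, -0.093, -0.09 and -0.10 for Cdc7, -0.037, -0.034 and -0.070 for Pole, -0.016, -0.012 and -0.12 for Chaf1a and -0.091, -0.088 and -0.19 for Rbbp4. After quantile normalization it was -0.076 for Mcm6 and -0.049 for Rfc1. With each library left out Cdc7 ranged from -0.026 (without DMSO replicate 3) to 0.089, and Etaa1 came to -0.046 without BRQ replicates 2 and 3. TMM and median-ratio scaling take off a shift near 0.12, the median of all genes. Quantile normalization also brought that median close to 0 (-0.0084) but moved some well-expressed members further, as Mcm6 from 0.15 and Cdt1 from 0.12 to the values above.

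Libraries with the same replicate number did not deviate together across genes (correlations of 0.004, -0.032 and -0.034), so the numbers were not taken as pairs. With the replicate block, 5112 genes were higher and 3507 lower, 42 and 6 of them members. In the replicate block the members' median was 0.53, and no call of a member changed. Reads per library were fewest for Dna2 in the DMSO libraries and for Gins1 in the BRQ libraries (222 to 616 and 341 to 423 over all 6).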

Other observations

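The order of levels among the replication genes changed with BRQ. Pcna was first and Dna2 last in both groups by mean FPKM. Pole3 went from rank 14 of 53 to rank 2, Fen1 from rank 26 to rank 5, Prim1 from rank 18 to rank 7 and Recql4 from rank 52 to rank 37. Dbf4 went from rank 5 to rank 25, Pold2 from rank 9 to rank 24 and Mcm6 from rank 7 to rank 14. Under DMSO the genes next to Pcna were Mcm5 (90.4 ± 2.12 FPKM), Mcm3 (81.2 ± 1.86) and Cdt1 (81 ± 2.1), of which the last pair overlapped in range. Under BRQ they were Pole3 (137 ± 2.93 FPKM), Mcm5 (127 ± 0.669) and Mcm3 (116 ± 1.12), with no overlap between these 3 (SD, n = 3 throughout).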
